A study of Homo sapiens with 21 samples.

Results

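The 10 genes described here code for the enzymes, and their partner subunits, that hydroxylate proline and lysine in collagen, together with ASPH, which hydroxylates aspartate and asparagine in EGF-like domains. They were taken by name as P4HA1, P4HA2, P4HB, P3H1, P3H2, P3H4, PLOD1, PLOD2, PLOD3 and ASPH, out of 26805 genes with a match in the RNA files. All 10 had counts and all 10 passed the filter on low counts, which kept 13528 genes. The RNA came from 786-O, an established human clear cell renal carcinoma line, in 9 libraries. Cells had been infected with guide RNA sg2 against JMJD6, with guide RNA sg4 against JMJD6, or with a control guide, and each of these groups had 3 libraries. All groups are the same cell line grown in the same medium, and the labels name no drug or oxygen treatment. The labels' treatment text describes siRNA transfection, whereas the titles and the extraction text describe guides, which were followed here. The labels do not say whether the 3 libraries of a group were separate cultures, or whether the infected cells were clones, so the p-values given here measure the spread between libraries.

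The collagen hydroxylases work in the endoplasmic reticulum on collagen chains before the triple helix forms, and like JMJD6 they use iron, oxygen and 2-oxoglutarate. Prolyl 4-hydroxylase, which makes the hydroxyproline that keeps the helix stable at body temperature, is a tetramer of catalytic alpha subunits (P4HA1 or P4HA2) and P4HB, which is also protein disulfide isomerase. Prolyl 3-hydroxylases (P3H1, P3H2) modify few prolines, and P3H1 does so in a complex with CRTAP and cyclophilin B. Lysyl hydroxylases (PLOD1, PLOD2, PLOD3) make the hydroxylysine from which sugars and cross-links are built, and PLOD2 acts on the telopeptides at the chain ends. P3H4 is a relative of the prolyl 3-hydroxylases without their catalytic residues. JMJD6 itself hydroxylates lysine in nuclear proteins such as splicing factors. Several of these genes, P4HA1 and PLOD2 among them, are textbook targets of the hypoxia-inducible factors, and 786-O lacks functional VHL, so that EPAS1 protein is kept at high levels in normal oxygen.

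Promoters are shown for P4HA1, the prolyl 4-hydroxylase gene that fell in JMJD6 knockout cells, for PLOD2, another of the textbook hypoxia targets among the enzymes, which was not called, and for P4HB, the most abundant member. The 250 bases upstream of the start site were taken from RefSeq (GRCh38.p14), at chr10:73096867-73097116 (minus strand) for P4HA1, chr3:146161185-146161434 (minus strand) for PLOD2 and chr17:81860536-81860785 (minus strand) for P4HB. Capitals mark the letters ACGTG and GCGTG on either strand, the core of the hypoxia response element.
P4HA1 promoter: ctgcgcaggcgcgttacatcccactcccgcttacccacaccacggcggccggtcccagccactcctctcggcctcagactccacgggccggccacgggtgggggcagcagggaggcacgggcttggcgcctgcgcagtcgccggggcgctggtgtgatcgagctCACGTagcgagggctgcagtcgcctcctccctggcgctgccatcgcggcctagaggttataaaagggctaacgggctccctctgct
PLOD2 promoter: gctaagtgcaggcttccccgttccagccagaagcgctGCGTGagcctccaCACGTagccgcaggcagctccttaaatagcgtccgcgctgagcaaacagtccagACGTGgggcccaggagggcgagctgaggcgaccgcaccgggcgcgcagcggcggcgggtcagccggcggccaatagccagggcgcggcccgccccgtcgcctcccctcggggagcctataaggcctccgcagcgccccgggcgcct
P4HB promoter: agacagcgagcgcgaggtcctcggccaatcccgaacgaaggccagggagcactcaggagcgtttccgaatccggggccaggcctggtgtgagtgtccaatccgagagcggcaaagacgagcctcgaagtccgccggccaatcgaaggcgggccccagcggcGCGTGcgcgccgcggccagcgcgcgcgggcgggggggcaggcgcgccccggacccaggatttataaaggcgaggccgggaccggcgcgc
The P4HA1 window held ACGTG at 1 position, the PLOD2 window held ACGTG at 2 positions and GCGTG at 1, and the P4HB window held GCGTG at 1. RefSeq had 9 windows for 8 of the 10 members, because P3H2 had a pair of start sites; P3H4 and ASPH were not among them. ACGTG stood in 3 of these 9 windows and in 18.5% of 35116 windows of the same length over all genes. GCGTG stood in 6 of the 9 windows and in 32.2% of all windows. The longer palindrome CACGTG, which contains ACGTG on both strands, stood in 1 of the 9 and in 6.34% of all. Both motifs are rich in G and C: the 3 windows shown held between 70.0% and 72.4% of these bases, against a median of 58.0% over all windows. A match of letters is a description and not a binding site.

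JMJD6 mRNA was read first, as a check of the labels. It had 16.1 to 17.3 CPM (counts scaled to library size) in sg2 libraries and 10.7 to 14.4 CPM in sg4 libraries, against 40.9 to 44.4 CPM in control libraries. Its log2 fold change for the mean of both guides was -1.56 ± 0.09 (SE; Benjamini-Hochberg adjusted p = 5.51e-12, edgeR quasi-likelihood test). Libraries held 14302316 to 16300347 estimated counts with sg2, 15445425 to 16172033 with sg4 and 14224263 to 15549632 in controls. Averaged over the 9 libraries, all 12 markers of a renal carcinoma line, PAX8 and CDH6 among them, stood at 1 TPM (a level per transcript length) or more, with a summed level of 7387 to 7819 TPM with sg2, 7310 to 7725 TPM with sg4 and 7106 to 7546 TPM in controls. Of 12 fibroblast and pericyte markers 6 averaged 1 TPM or more, and the sum of all 12 was 19.7 to 28.1 TPM with sg2, 21.9 to 28.9 TPM with sg4 and 34.7 to 68.1 TPM in controls. Control library 1 stood apart from the other controls: its sum was 68.1 TPM, against 34.7 and 35.2 TPM in control libraries 2 and 3. It held COL1A2 at 7.49 TPM, DCN at 5.31 TPM and COL3A1 at 2.18 TPM, while DCN and COL3A1 were below 1 TPM in each of the other 8 libraries, and PDGFRA, PDGFRB, FAP and POSTN were below 1 TPM in all 9. Of 12 leukocyte and endothelial markers 2 averaged 1 TPM or more, CD68 and CSF1R, and CD3E, CDH5 and EMCN were at 0 in every library. The sums were 53.8 to 61.6 TPM with sg2, 54.4 to 64.8 TPM with sg4 and 67.1 to 87.6 TPM in controls. Almost all of each sum was CD68. It had 50.4 to 58.9 TPM with sg2, 51.9 to 61.5 TPM with sg4 and 65.3 to 85.3 TPM in controls. CSF1R went the other way and was higher in every knockout library than in any control. Counts also drifted with transcript length in control library 3 (a log2 change of 0.058 per doubling of length) and in sg4 libraries 2 and 3 (-0.0389 and -0.0601), while the other 6 libraries lay between -0.00244 and 0.0162. Control library 3 and sg4 libraries 2 and 3 are named the 3 drifting libraries. The part of these differences in the results was not tested, except that calls lost with a correction for length or without these libraries are given as such beside the gene. Without the 3 drifting libraries sg4 keeps 1 library and the control group 2, so the drift and the fewer libraries cannot be told apart there.

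All 10 genes were well expressed, and their order per length was the same in every group. P4HB led with 1190 ± 10.9 TPM with sg2, 1181 ± 34.7 TPM with sg4 and 1323 ± 39.2 TPM in controls (SD, n = 3 each), which placed it at percentile 99.3 of all genes tested by its control level. ASPH came next with 489 ± 15.2 TPM with sg2, 470 ± 29.0 TPM with sg4 and 441 ± 8.86 TPM in controls. It was followed by the lysyl hydroxylases PLOD2 (327 ± 3.47 TPM with sg2, 297 ± 22.1 TPM with sg4 and 321 ± 6.29 TPM in controls), PLOD1 and PLOD3. The rarest members were P4HA2, with 75.4 ± 5.05 TPM with sg2, 75.6 ± 1.96 TPM with sg4 and 80.6 ± 4.50 TPM in controls, and P3H4, with 34.5 ± 1.67 TPM with sg2, 35.97 ± 0.75 TPM with sg4 and 38.8 ± 2.01 TPM in controls. P3H4 still stood at percentile 68 of all genes tested. Within each group no gene's range over the 3 libraries reached that of its neighbour in the order.

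**Figure D1:**
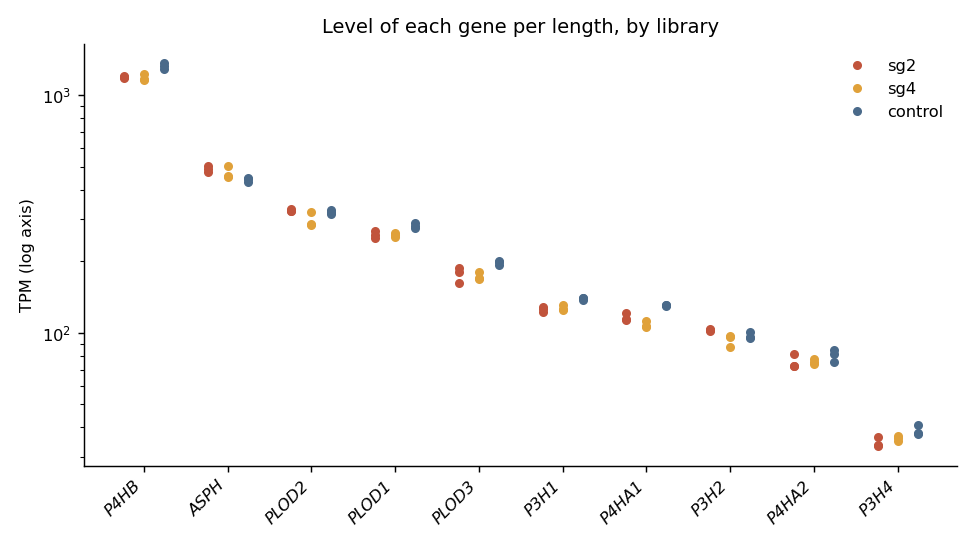
Level of each of the 10 genes in TPM on a log axis, ordered by the control mean, with 1 point per library for sg2, sg4 and control. P4HB lies between 1154 and 1220 TPM with either guide and between 1283 and 1361 TPM in controls, P3H4 lies at 41.1 TPM or less in every library, and the order is the same in the 3 groups.

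Knockout of JMJD6 moved these genes little. With both guides averaged and set against the control, 1 of the 10 genes rose (ASPH) and 1 fell (P4HA1), against 6.91% higher and 6.96% lower, or 13.9% in all, among the 13528 genes tested. With sg2 alone 1 of 10 rose (ASPH) and 0 fell, against 5.01% higher and 5.36% lower, or 10.4% in all. With sg4 alone 1 of 10 rose (ASPH) and 1 fell (P4HA1), against 4.64% higher and 3.78% lower, or 8.43% in all. These shares of members are near the background. ASPH was the 1 member called in the same direction with each guide, a pattern seen in 2.76% of all genes as a rise, in 2.23% as a fall and in 4.99% in all. Unadjusted p-values under 0.05 were found for 4 of the 10 for both guides, 5 for sg2 and 2 for sg4, against 26.9%, 24.7% and 23.3% of all genes tested. DESeq2 called 3, 2 and 2 members, against 14.8%, 11.9% and 9.63% of the genes to which it gave an adjusted p. The median log2 fold change of the 10 genes was -0.08 for both guides, against -0.01 for all genes tested. Both guides were set against the same 3 control libraries, so their values are not independent of each other.

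**Figure D2:**
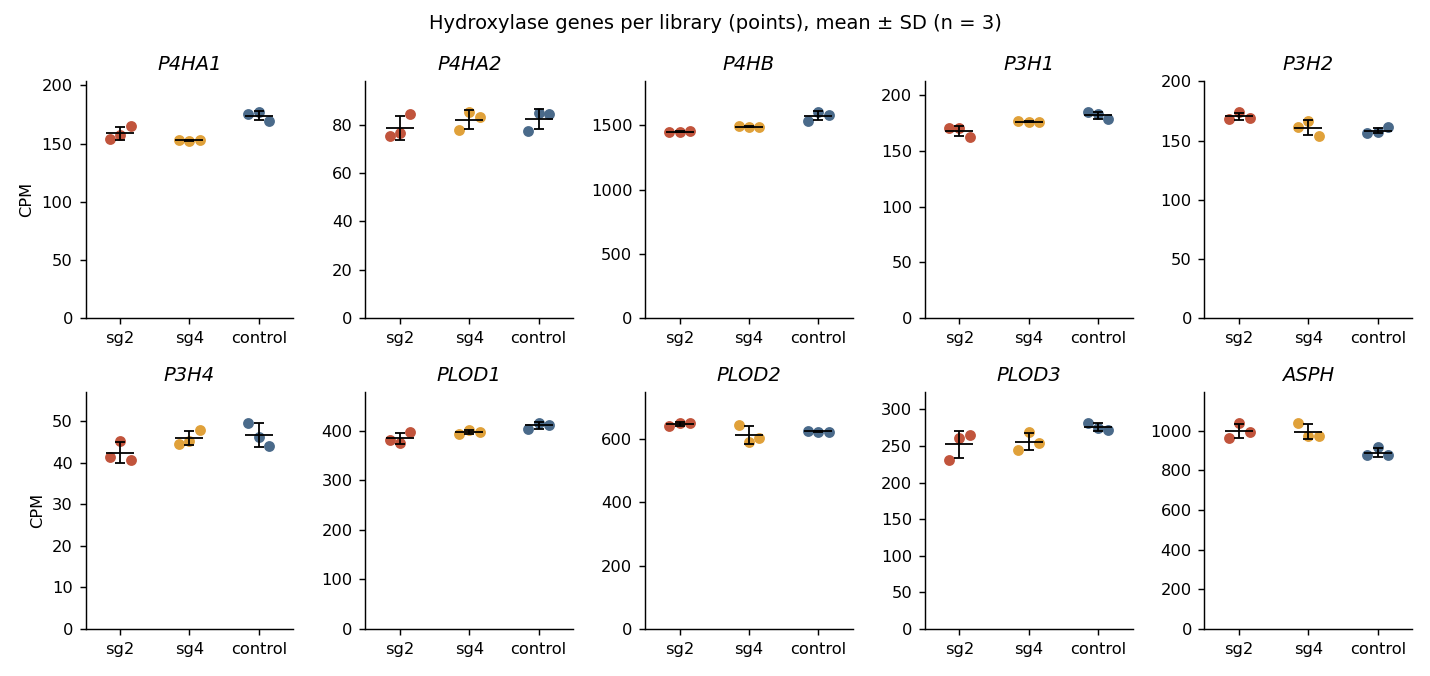
CPM of each of the 10 genes in sg2, sg4 and control libraries, with points for libraries and lines for the mean ± SD (n = 3 each). ASPH is higher in all 6 knockout libraries than in any control, P4HA1, P4HB, PLOD1, PLOD3 and P3H1 are lower in all 6, and the other 4 genes overlap.

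ASPH, the aspartyl and asparaginyl hydroxylase, rose. It had 965, 1039 and 993 CPM in the sg2 libraries and 1041, 973.4 and 974.8 CPM in the sg4 libraries, against 878, 916 and 876 CPM in the control libraries. All 6 knockout libraries lay above every control. The log2 fold change was 0.16 ± 0.04 for the mean of both guides (SE, adjusted p = 0.0106, edgeR quasi-likelihood test), a 1.121-fold increase with a 95% interval of 1.05 to 1.19. The guides gave 0.17 with sg2 (adjusted p = 0.0289 by edgeR) and 0.16 with sg4 (adjusted p = 0.0373 by edgeR). The call for both guides was lost when control library 1 (adjusted p = 0.0645 by edgeR) or control library 3 (adjusted p = 0.06 by edgeR) was left out, and on log2(TPM + 1) by limma (0.12, adjusted p = 0.11). With the length correction the log2 fold change was 0.18 (adjusted p = 0.00261 by edgeR), and without the 3 drifting libraries it was also 0.18 (adjusted p = 0.025 by edgeR). The calls for single guides were less steady: leaving out 1 library at a time lost that of sg2 in 3 of 9 cases (sg2 library 2, control library 1 and control library 3, with edgeR adjusted p up to 0.115) and that of sg4 in 6 of 9 (all but sg2 libraries 2 and 3 and control library 2, with edgeR adjusted p up to 0.13). Both calls were also lost by limma on log2(TPM + 1) (adjusted p = 0.114 and 0.294). The same held without the 3 drifting libraries, a fit with 1 sg4 library. There the log2 fold changes were 0.15 with sg2 and 0.22 with sg4.

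P4HA1, a catalytic subunit of prolyl 4-hydroxylase, fell. It had 154, 157 and 165 CPM with sg2 and 153.1, 152.5 and 153.3 CPM with sg4, against 175, 177 and 170 CPM in controls. Every knockout library lay below every control, and the 3 sg4 libraries lay just below the 3 sg2 libraries. The log2 fold change was -0.16 ± 0.05 for both guides (SE, adjusted p = 0.0235, edgeR quasi-likelihood test), with an interval from -0.256 to -0.0633. With sg4 it was -0.19 (adjusted p = 0.0328 by edgeR), and with sg2 -0.13 (adjusted p = 0.121 by edgeR), but sg4 against sg2 gave -0.05 with a 95% interval from -0.165 to 0.0593 and no call. The call for both guides was lost without sg2 library 1 (adjusted p = 0.0704 by edgeR), control library 1 (adjusted p = 0.108 by edgeR) or control library 2 (adjusted p = 0.101 by edgeR), and without the 3 drifting libraries (adjusted p = 0.0666 by edgeR). The call with sg4 was lost in 7 of the 9 cases, with edgeR adjusted p from 0.0514 to 0.118 among the lost. It was kept without sg2 library 2 and without sg2 library 3. It was also lost without the 3 drifting libraries, at a log2 fold change of -0.20 with 1 sg4 library.

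The partners of P4HA1 in prolyl 4-hydroxylase gave no call by edgeR. P4HA2, the other catalytic subunit, had 75.3, 76.4 and 84.5 CPM with sg2 and 77.9, 85.3 and 83.1 CPM with sg4, against 77.5, 84.7 and 84.5 CPM in controls. Its 3 groups overlapped, and the log2 fold change was -0.03 with a 95% interval from -0.152 to 0.0866. P4HB, the disulfide isomerase subunit, had 1445, 1449 and 1452 CPM with sg2 and 1491, 1485 and 1488 CPM with sg4, against 1533, 1603 and 1583 CPM in controls. All 6 knockout libraries were below every control and the spread within each guide was small, yet the log2 fold change of -0.10 ± 0.04 (SE) missed the threshold (adjusted p = 0.0815 by edgeR). DESeq2 called it at -0.10 (adjusted p = 0.0369), and so did limma on log2(TPM + 1) at -0.16 (adjusted p = 0.0219), though not without the filter on low values (adjusted p = 0.0504). The catalytic subunits together amounted to 16.1 ± 0.70% of the P4HB level in TPM with sg2, 15.6 ± 0.30% with sg4 and 15.96 ± 0.17% in controls (SD, n = 3 each). These ratios overlapped between the groups.

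None of the lysyl hydroxylases was called by edgeR. PLOD1, the lysyl hydroxylase of the helical part of collagen, had 381, 377 and 398 CPM with sg2 and 394, 402 and 399 CPM with sg4, against 404, 417 and 413 CPM in controls. PLOD3, which also carries the glycosyltransferase activity that adds sugars to hydroxylysine, had 231, 261 and 265 CPM with sg2 and 245, 269 and 254 CPM with sg4, against 282, 274 and 272 CPM in controls. For both genes all knockout libraries were lower than all controls, by small margins. The log2 fold changes were -0.07 for PLOD1 (95% interval -0.158 to 0.0173; adjusted p = 0.306 by edgeR) and -0.12 for PLOD3 (-0.222 to -0.0158; adjusted p = 0.121 by edgeR), and limma on log2(TPM + 1) called PLOD3 at -0.18 (adjusted p = 0.0411), though not without the filter (adjusted p = 0.0706). PLOD2, the telopeptide lysyl hydroxylase, had 641, 652 and 651 CPM with sg2 and 645, 590 and 603 CPM with sg4, against 627, 622.5 and 622.1 CPM in controls. The sg2 libraries were above every control, while the sg4 libraries lay on both sides of them, and the log2 fold change for both guides was 0.01 with a 95% interval from -0.0725 to 0.102; on log2(TPM + 1) it was -0.04 and likewise not called (limma). PLOD2 made up 42.9 ± 0.81% of the summed TPM of the 3 PLOD genes with sg2, 40.8 ± 1.68% with sg4 and 40.1 ± 0.17% in controls (SD, n = 3 each), a quantity chosen after its values were seen and not tested.

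The prolyl 3-hydroxylases gave no call by edgeR either. P3H1, the enzyme of the cartilage-associated complex, had 170.8, 170.3 and 162.8 CPM with sg2 and 176.5, 175.9 and 175.9 CPM with sg4, against 185, 183 and 179 CPM in controls. P3H2, which modifies basement membrane collagens, had 168, 174 and 169 CPM with sg2 and 162, 167 and 154 CPM with sg4, against 157, 158 and 161 CPM in controls. P3H1 was lower in every knockout library than in every control, whereas P3H2 was above every control in 5 of 6 knockout libraries. In TPM P3H2 was above every control in 3 of 6 and below every control in 1. The log2 fold changes were -0.08 for P3H1 (95% interval -0.177 to 0.0124) and 0.06 for P3H2 (-0.0346 to 0.161), and limma on log2(TPM + 1) without a filter called P3H1 at -0.14 (adjusted p = 0.0402). P3H2 made up 45.01 ± 0.68% of the summed TPM of P3H1 and P3H2 with sg2 and 42.4 ± 0.96% with sg4, against 41.1 ± 0.77% in controls (SD, n = 3 each), again without a test. P3H4, which in the mouse forms a complex with P3h3 and Plod1, had 41.4, 45.2 and 40.7 CPM with sg2 and 44.6, 45.2 and 47.8 CPM with sg4, against 49.6, 46.2 and 44.0 CPM in controls. Its groups overlapped in CPM, with a log2 fold change of -0.08 and the widest interval of the 10 genes, from -0.217 to 0.056. In TPM all 6 knockout libraries of P3H4 were below every control.

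**Figure D3:**
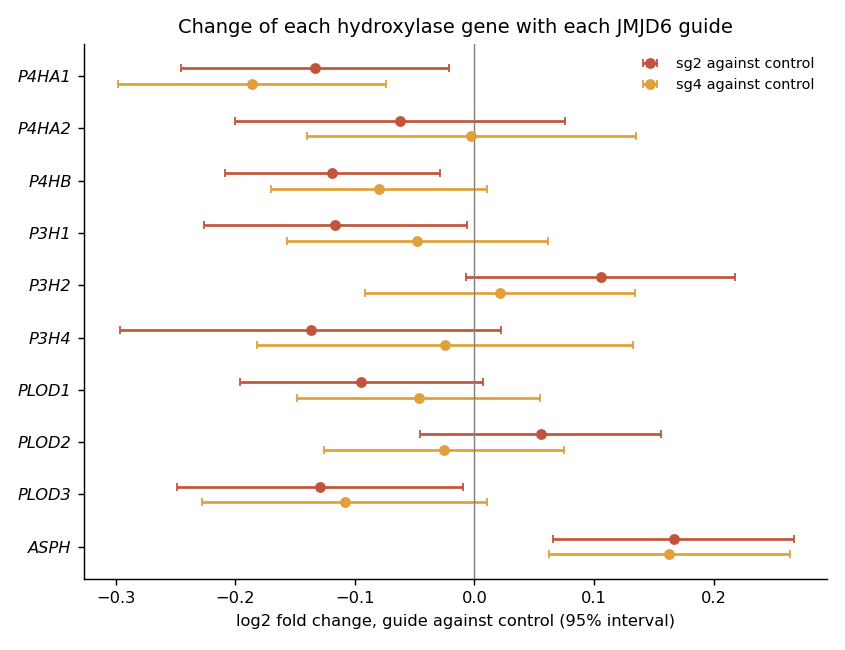
Log2 fold change of each of the 10 genes with sg2 and with sg4 against control, with 95% intervals from the edgeR fit. The 95% intervals of ASPH lie above 0 with both guides and those of P4HA1 lie below 0 with both, although P4HA1 with sg2 was not called after adjustment, and no estimate exceeds 0.19 in size.

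Across the 10 genes, the CPM of knockout and control libraries did not overlap for 6, with 5 lower (P4HA1, P4HB, PLOD1, PLOD3 and P3H1) and 1 higher (ASPH), where 14.9% of all genes tested did not overlap, 7.18% lower and 7.76% higher. Of these 6, edgeR called ASPH and P4HA1. No difference between the guides was called for any member: sg4 against sg2 called 0 of 10 by edgeR and by DESeq2, 0 of the 10 had an unadjusted p under 0.05, and the background was 0.0444% higher and 0.0148% lower, or 0.0591% in all, by edgeR, 1.51% by DESeq2 and 9.89% unadjusted. That does not show equal levels, since the 95% intervals of the log2 difference reached from -0.197 (P3H2) to 0.271 (P3H4).

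The share of ASPH in the summed TPM of the 10 genes was 16.6%, 17.4% and 16.7% in the sg2 libraries and 17.2%, 16.4% and 16.5% in the sg4 libraries, against 14.4%, 14.7% and 14.2% in the control libraries. The share was above every control in 6 of 6 knockout libraries. This summary was chosen after the values were seen and is given without a test. As a share of estimated counts the mean difference was 2.73 percentage points, against 2.32 in TPM.

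The ASPH locus makes several proteins, of which the long form holds the catalytic domain, while shorter forms such as junctin and junctate lack it and serve calcium handling at the endoplasmic reticulum. The files list 12 ASPH transcripts, and 2 of them, of 5154 and 5349 bases, exceed 5 kb. These 2 together had 433, 448 and 440 CPM with sg2 and 468, 428 and 425 CPM with sg4, against 417, 420 and 412 CPM in controls. The 10 shorter transcripts together had 532, 590 and 553 CPM with sg2 and 573, 546 and 549 CPM with sg4, against 461, 497 and 463 CPM in controls. Both sums were higher in all 6 knockout libraries, the long ones by a ratio of means of 1.06 and the shorter ones by 1.18. The transcripts over 5 kb made up 44.9%, 43.2% and 44.3% of ASPH counts with sg2 and 44.96%, 43.95% and 43.6% with sg4, against 47.5%, 45.8% and 47.1% in controls, lower in 6 of 6 knockout libraries. The split by length was chosen after the values were seen, so this difference was not tested, and the files do not say which transcripts encode which protein.

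**Figure D4:**
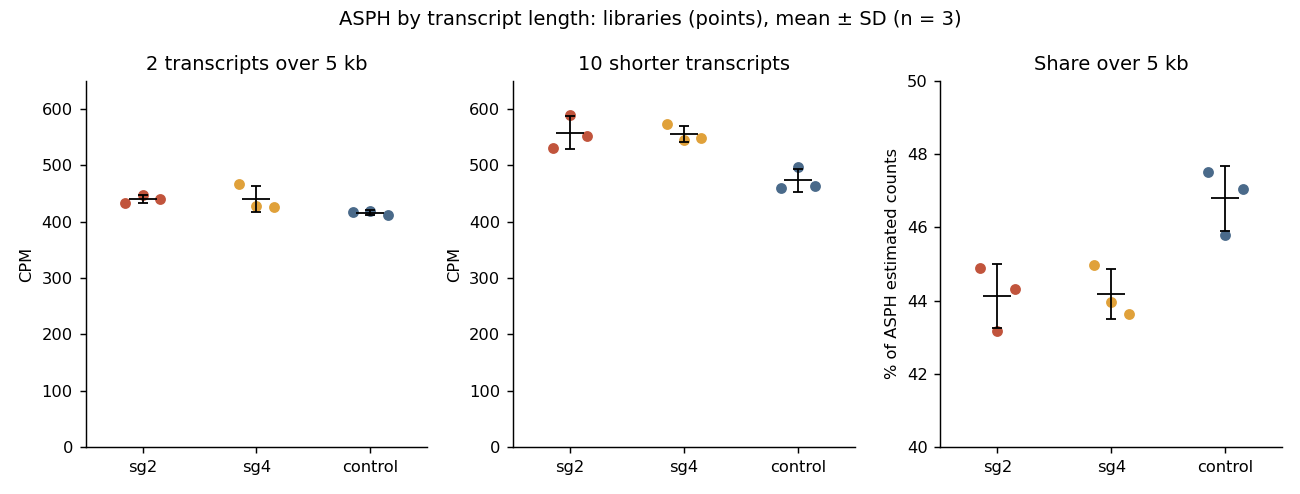
ASPH transcripts over 5 kb and the 10 shorter ones in CPM, and the share of those over 5 kb in the estimated counts of ASPH, in sg2, sg4 and control libraries, with the mean ± SD (n = 3 each). The share axis runs from 40% to 50%, and the 6 knockout points lie between 43.2% and 44.96%, below the 3 control points.

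A test of single transcripts called none of the members' transcripts, which does not show that their shares were equal. The 10 genes have 32 transcripts in the files, of which 29 could be tested for their share of the gene, because PLOD3, P3H4 and P4HB have 1 transcript each. By edgeR's diffSpliceDGE, 0 of the 29 were called for both guides against control, where 0.0174% of 28817 transcripts were called. The unadjusted threshold of 0.05 was reached by 481 of the 28817 and by 1 of the 29, an ASPH transcript of 3564 bases. Its share of ASPH counts was 5.91% with sg2, 5.87% with sg4 and 5.203% in controls (means, n = 3 each). PLOD2 has a pair of transcripts that differ by the alternative exon of its long form, and the longer one, of 4059 bases, held 50.7 ± 0.70% with sg2, 51.7 ± 0.51% with sg4 and 51.0 ± 0.37% in controls (SD, n = 3 each). Salmon splits reads that fit several transcripts, so shares between transcripts that differ by a small exon are estimates with an error that the test does not contain. The strand setting is not given in the sources used here, so a gene and its antisense partner cannot be told apart; P4HA2-AS1 had 14 to 30 counts per library, against 1071 to 1299 for P4HA2, and P3H2-AS1 had 0 to 4, against 2269 to 2715 for P3H2.

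Beside the 10 genes, their partners in collagen folding and modification were listed. Of 12, all tested, 1 rose and 4 fell (8.33% and 33.3%), against 6.91% higher and 6.96% lower over all genes. The 12 include P4HTM, 1 of the 4 that fell, which does not act on collagen. The median log2 fold change was -0.14, against -0.01 over all genes. With sg2 alone 0 rose and 4 fell, against 5.01% higher and 5.36% lower over all genes. With sg4 alone 2 rose and 1 fell, against 4.64% and 3.78%, at a median of -0.08. FKBP10, the prolyl isomerase that associates with PLOD2 in lysyl hydroxylation, fell most, with 286, 252 and 315 CPM with sg2 and 311, 354 and 350 CPM with sg4, against 390, 392 and 395 CPM in controls. All 6 knockout libraries were below every control, and the log2 fold change was -0.34 ± 0.06 (SE, adjusted p = 2.07e-04 by edgeR), called in all 9 fits that left out 1 library. P3H3, a prolyl 3-hydroxylase relative, fell by 0.23 on the log2 scale, with 107 ± 7.25 CPM with sg2, 126 ± 13 CPM with sg4 and 136.5 ± 3.21 CPM in controls (SD, n = 3 each; adjusted p = 0.0102 by edgeR), and lost its call without control library 1 or 2 (adjusted p = 0.0517 and 0.0514 by edgeR). P4HTM, a membrane-bound prolyl hydroxylase that does not act on collagen, fell by 0.26 (adjusted p = 0.0385 by edgeR) and lost its call without sg2 library 2 or 3, sg4 library 1 or 3, or control library 1 or 2 (adjusted p from 0.053 to 0.356 by edgeR). Without control library 1 its log2 fold change was -0.16. Outside the naming rule, SERPINH1, a collagen chaperone, fell by 0.16 (adjusted p = 0.0355 by edgeR), a call kept without sg2 library 2, sg4 library 1 or sg4 library 2 and lost without any other (adjusted p up to 0.13 by edgeR) and without the 3 drifting libraries (adjusted p = 0.17 by edgeR). COLGALT1, which puts galactose on hydroxylysine, rose by 0.15 (adjusted p = 0.023 by edgeR), lost without control library 1 or 2 (adjusted p = 0.095 and 0.107 by edgeR), without the 3 drifting libraries (adjusted p = 0.0632 by edgeR) and by limma on log2(TPM + 1), at 0.09 (adjusted p = 0.198). CRTAP and PPIB, the companions of P3H1, were not called for both guides, with log2 fold changes of -0.10 and 0.08. PPIB was called with sg4 (0.19, adjusted p = 0.0387 by edgeR) and not with sg2 (-0.03). P3H3, P4HTM and SERPINH1 were each called with sg2 and not with sg4, where their log2 fold changes were -0.115, -0.16 and -0.13. COLGALT1 was called with sg4 and not with sg2, and FKBP10 with each guide. Leaving out single libraries changed the count of 5 called partners to 1 without control library 1 or control library 2, and to 3 without sg2 library 3 or sg4 library 3; it was also 3 without the 3 drifting libraries.

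Collagen chains are the substrates of these enzymes. Of 33 chain genes 19 passed the filter, and 0 rose and 4 fell (21.1%), against 6.91% higher and 6.96% lower over all genes. The median log2 fold change was -0.19, and 10 of the 19 had an unadjusted p under 0.05, against 26.9% of all genes. COL7A1, the anchoring fibril collagen, had 402, 343 and 422 CPM with sg2 and 394, 502 and 391 CPM with sg4, against 678, 550 and 645 CPM in controls. Every knockout library was below every control, at a log2 fold change of -0.61 ± 0.07 (SE, adjusted p = 2.55e-06 by edgeR). COL4A5, a basement membrane chain, fell by 0.36 (26.3 ± 1.05 CPM with sg2, 26.7 ± 3.22 CPM with sg4 and 34.1 ± 2.44 CPM in controls; adjusted p = 0.00415 by edgeR), a call lost without control library 1 (adjusted p = 0.0569 by edgeR). COL8A1, a short-chain collagen, fell by 0.19 (adjusted p = 0.0397 by edgeR) and lost its call without any 1 of the sg2 libraries, sg4 library 3, or control library 1 or 2 (adjusted p up to 0.217 by edgeR). The fourth, COL1A2, named after its values were seen, had 3, 2 and 0 counts with sg2 and 3, 0 and 45 counts with sg4, against 298, 22 and 2 counts in controls, and its call was lost without control library 1 (adjusted p = 0.526 by edgeR), with DESeq2 (adjusted p = 0.0946) and with limma on log2(TPM + 1) (adjusted p = 0.217). The abundant chains COL4A2, COL18A1 and COL6A3 had log2 fold changes of 0.01, 0.02 and 0.11 and were not called. The count of called chains was 1 without control library 1 and 7 without control library 3, and also 7 without that library and sg4 libraries 2 and 3 or with no filter on low counts. The chains tested in those fits may differ from the 19 of the main fit, because the filter was run within each fit.

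**Figure D5:**
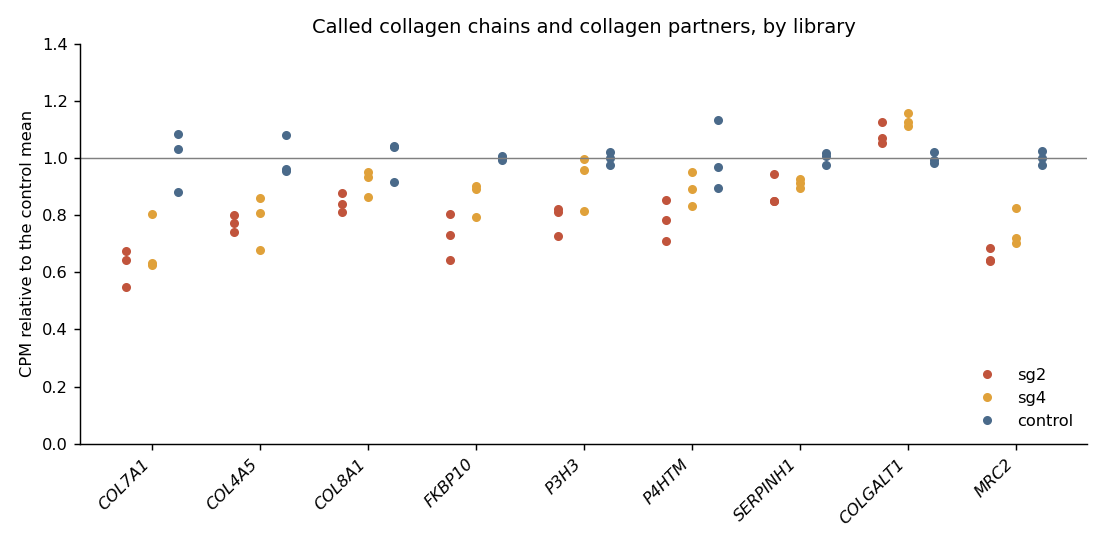
Called collagen chains, called folding and modification partners and MRC2, as CPM divided by the control mean, with 1 point per library and the line at 1 marking the control mean; COL1A2 is left out for its low counts. The sg2 points lie left of the sg4 points and the control points right of them for each gene. All knockout points of COL7A1, COL4A5, FKBP10, SERPINH1 and MRC2 are below the controls, and those of COLGALT1 are above. For COL8A1, P3H3 and P4HTM the points of knockout and control overlap.

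Few genes of the later steps were called. Of 17 genes for collagen export from the endoplasmic reticulum, 5 had an unadjusted p under 0.05, near the 26.9% of all genes. The median log2 fold change was 0.02, and edgeR called 0 of the 17, against 13.9% of all genes tested. The count was 1 with DESeq2, and 1 by edgeR with DESeq2's size factors, with the length correction, with no filter on low counts, or without sg4 library 2, sg4 library 3 or control library 2. Of 16 genes for maturation, cross-linking and uptake 14 were tested, at a median of -0.02. Of these 0 rose and 1 fell (7.14%), against 6.91% higher and 6.96% lower over all genes. The count was 2 with DESeq2, with limma on log2(TPM + 1), and by edgeR without sg2 library 3, without sg4 library 2 or without the 3 drifting libraries. The gene that fell was MRC2, the endocytic receptor that takes up collagen, with 509, 511 and 545 CPM with sg2 and 560, 656 and 572 CPM with sg4, against 775, 795 and 816 CPM in controls. Its knockout libraries lay well below the controls, at a log2 fold change of -0.51 ± 0.05 (SE, adjusted p = 1.55e-07 by edgeR), where that of ASPH was 0.16. The lysyl oxidases, which cross-link the hydroxylated lysines, were not called for both guides. LOXL2, the abundant one, had a log2 fold change of -0.12 (adjusted p = 0.0598 by edgeR) and was called with sg2 (-0.16, adjusted p = 0.0451 by edgeR) and not with sg4 (-0.09, adjusted p = 0.303 by edgeR). Of 23 other protein disulfide isomerases and oxidases 20 were tested, at a median of 0.05. Of the 20, 1 was higher (5%) and 0 were lower, against 6.91% and 6.96% over all genes. TXNDC5, the one that rose, had 240 ± 10.8 CPM with sg2, 247 ± 13.2 CPM with sg4 and 217 ± 10.8 CPM in controls (SD, n = 3 each), a log2 fold change of 0.16 (adjusted p = 0.0297 by edgeR) that was lost without sg2 library 1 or 2 or control library 1 or 3 (adjusted p from 0.0512 to 0.162 by edgeR), without the 3 drifting libraries (adjusted p = 0.0771 by edgeR) and by limma on log2(TPM + 1), at 0.11 (adjusted p = 0.22).

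Proteins with EGF-like domains, the substrates of ASPH, went both ways. Of 32 listed with their glycosyltransferases 25 were tested, and 3 rose and 4 fell, with a median log2 fold change of -0.03. These are 12% and 16% of the genes tested, against 6.91% and 6.96% over all genes. EFEMP1, an extracellular matrix fibulin, rose and averaged 15.5 ± 0.59 CPM in sg2 libraries and 15.1 ± 0.64 CPM in sg4 libraries, against 11.04 ± 0.76 CPM in controls (SD, n = 3 each; log2 fold change 0.47, adjusted p = 0.00343 by edgeR), a call lost without the 3 drifting libraries (adjusted p = 0.0632 by edgeR). The Notch ligand JAG2 fell by 0.42 (adjusted p = 0.0395 by edgeR), lost without sg2 library 3, sg4 library 1 or 3, or any control library (adjusted p up to 0.2 by edgeR). It was also lost with the length correction (-0.40, adjusted p = 0.0533 by edgeR), without the 3 drifting libraries (-0.50, adjusted p = 0.0832 by edgeR) and by limma on log2(TPM + 1) (-0.36, adjusted p = 0.0895). The other Notch ligand JAG1, outside the naming rule, rose by 0.19 (adjusted p = 0.00957 by edgeR), lost without control library 1 (adjusted p = 0.0851 by edgeR) and by limma on log2(TPM + 1) (adjusted p = 0.149). CRELD1, an endoplasmic reticulum protein with EGF-like domains, fell by 0.43 (adjusted p = 0.0122 by edgeR), lost without control library 1 (adjusted p = 0.128 by edgeR). Without that library 2 genes of the list were called in place of 7, and 4 were called by limma on log2(TPM + 1) or without the 3 drifting libraries.

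Because P4HA1 and PLOD2 are hypoxia targets, 26 textbook targets of the hypoxia-inducible factors were set beside them. All 26 were tested, and 5 rose and 7 fell, with a median log2 fold change of -0.05. These are 19.2% higher and 26.9% lower, against 6.91% and 6.96% over all genes tested. NDRG1, a stress-response gene, had 2225, 1982 and 2688 CPM with sg2 and 1885, 2109 and 2314 CPM with sg4, against 3019, 2790 and 2767 CPM in controls, and fell by 0.38 (adjusted p = 2.77e-04 by edgeR). EGLN3, a prolyl hydroxylase of the hypoxia-inducible factors themselves, fell by 0.32 (116 ± 8.58 CPM with sg2, 119 ± 6.60 CPM with sg4 and 147 ± 6.23 CPM in controls, SD, n = 3 each; adjusted p = 2.68e-04 by edgeR). ANGPTL4, a secreted lipase inhibitor, rose by 0.38 (adjusted p = 0.0207 by edgeR), lost without sg4 library 3 or control library 2 or 3 (adjusted p up to 0.0973 by edgeR), with DESeq2 (adjusted p = 0.13) and with limma on log2(TPM + 1) (adjusted p = 0.124). Without the 3 drifting libraries its log2 fold change was 0.20 (adjusted p = 0.397 by edgeR). LDHA and PGK1, glycolytic enzymes named after their values were seen, rose by 0.17 and 0.20, and limma on log2(TPM + 1) called neither (0.11 and 0.14, adjusted p = 0.158 and 0.0639). LDHA was not called without control library 1 (adjusted p = 0.0754 by edgeR), nor PGK1 without the 3 drifting libraries (adjusted p = 0.0691 by edgeR). The list thus went both ways, beside the lower P4HA1 and the uncalled PLOD2, which are not among its members. The 12 calls became 6 without control library 1 or without control library 2, and 7 by limma on log2(TPM + 1).

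Among 20 other 2-oxoglutarate hydroxylases and relatives, 19 were tested, and 1 rose and 3 fell, JMJD6 included, with a median log2 fold change of -0.02. These are 5.26% and 15.8% of the genes tested, against 6.91% and 6.96% over all genes. OGFOD1, a prolyl hydroxylase of a ribosomal protein, rose and averaged 77.4 ± 2.29 CPM in sg2 libraries and 75.8 ± 2.36 CPM in sg4 libraries, against 62.0 ± 3.33 CPM in controls (SD, n = 3 each; log2 fold change 0.31, adjusted p = 7.65e-04 by edgeR). OGFOD3 fell by 0.32 (adjusted p = 0.0264 by edgeR), lost without sg2 library 1 or 3, sg4 library 1 or any control library (adjusted p up to 0.131 by edgeR). The 4 calls became 2 without sg2 library 1 or 3, sg4 library 1, or control library 2 or 3. In the marker lists, KRT18, an epithelial keratin, rose by 0.45 (adjusted p = 5.98e-06 by edgeR) and KRT8 by 0.16 (adjusted p = 0.0189 by edgeR), as 2 of 12 renal line markers called; KRT8 lost its call without control library 1 or 3 (adjusted p = 0.11 and 0.0737 by edgeR), without the 3 drifting libraries (adjusted p = 0.103 by edgeR) and by limma on log2(TPM + 1), at 0.09 (adjusted p = 0.176). The 2 calls, both higher, were 16.7% of the 12 markers, against 6.91% higher over all genes. The number of calls became 4 without sg4 library 2 and 1 without control library 1. Of 12 fibroblast and pericyte markers 7 were tested, at a median of -0.68. Of these 0 rose and 3 fell (42.9%), against 6.91% higher and 6.96% lower over all genes. LUM was at -0.97 (adjusted p = 0.00245 by edgeR) and ACTA2 at -0.68 (adjusted p = 0.00116 by edgeR), both with group means of 15.4 CPM or less. The third, COL1A2, lost its call without control library 1 (adjusted p = 0.526 by edgeR). Without control library 1 the log2 fold change of LUM was -0.44 and its call was lost (adjusted p = 0.159 by edgeR), and the count of fibroblast markers called ranged from 1 without that library to 7 without control library 3. The filter on low counts was run within each fit, so the markers tested there may differ from the 7 of the main fit. Of the leukocyte and endothelial markers 2 were tested, with CD68 lower at -0.28 (adjusted p = 0.0193 by edgeR) and CSF1R higher at 0.83 (adjusted p = 0.0113 by edgeR), and neither was called without control library 3 (-0.16 and 0.80, adjusted p = 0.249 and 0.0506 by edgeR) or without it and sg4 libraries 2 and 3 (-0.15 and 0.85, adjusted p = 0.292 and 0.063 by edgeR). CSF1R also lost its call without control library 1 (adjusted p = 0.0528 by edgeR). With 2 leukocyte and endothelial markers tested, the shares were 50% higher and 50% lower, against 6.91% and 6.96% over all genes. The group means of the called chains and of the 4 called partners that fell were lower with both guides, as was the fibroblast marker sum. COL1A1, COL1A2 and COL3A1 are in both the chain list and the marker list. In control libraries 1 to 3 the sum was 68.1, 34.7 and 35.2 TPM. In the same libraries FKBP10 had 390, 392 and 395 CPM, SERPINH1 142, 147 and 148 CPM, and COL7A1 678, 550 and 645 CPM. The part of that sum in the result was not tested. In bulk RNA fewer cells of a type and less RNA per cell cannot be told apart.

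Among 8690 genes whose log2 CPM averaged 4 or more, those whose log2 CPM over the 9 libraries was most like that of ASPH were ELOVL5, a fatty acid elongase (Pearson r = 0.987), PSPC1, a paraspeckle protein (0.982), and ZWILCH, a kinetochore protein (0.979). Those most like P4HA1 were ZNF395 (0.958), ARHGEF6 (0.948) and RPTOR, a subunit of the mTOR complex (0.948). The 9 libraries share the contrast between knockout and control, so these values describe a common pattern in these libraries and carry no test. The ASPH companions had log2 fold changes of 0.23 for ELOVL5, 0.29 for PSPC1 and 0.43 for ZWILCH, all larger than that of ASPH, and the P4HA1 companions had -0.33 for ZNF395, -0.31 for ARHGEF6 and -0.23 for RPTOR.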

How the data were processed

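RNA-seq libraries of 786-O cells, 3 per group, were used; the ChIP-seq peak lists and inputs were not used here. Salmon gave each RefSeq transcript an estimated count and a TPM value, per the file headers; the deposited counts were all whole numbers. The submitters' processing notes also list cutadapt 1.12 and STAR 2.5.2b. Accessions were matched to RefSeq (GRCh38.p14, names only): 58025 of 60422 (96.03%) matched, and the unmatched held 1.34% to 1.66% of counts. No library pair of 36 was identical. Counts were summed per gene, rounded and tested over 13528 genes in 1 edgeR 4.0.16 quasi-likelihood fit of all 9 libraries (R 4.3.3, TMM, filterByExpr, 2-sided, Benjamini-Hochberg over all genes, threshold 0.05); CPM uses the normalised library sizes. The contrasts were both guides, sg2 and sg4 against control, and sg4 against sg2. DESeq2 1.42.0 and limma 3.58.1 on log2(TPM + 1) were alternatives. The fit was also run on simulated data, and no result of that run is used here. The members and lists were chosen with earlier results of these data known. Named were all members, JMJD6, and per list up to 3 called genes of mean log2 CPM of at least 2 with the largest change, plus the 3 genes most like ASPH and most like P4HA1. Intervals cover the model's error between libraries.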

Additional observations from a re-analysis of the deposited data

How the results depend on the processing

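For both guides against control, 2 members were called. This became 3 with DESeq2 (P4HB added), 3 with limma on log2(TPM + 1) (P4HA1, P4HB and PLOD3, all lower), 1 without control library 3 and sg4 libraries 2 and 3, and 0 to 2 when 1 library was left out. For sg2 against control, 1 was called; DESeq2 called 2, the 3 limma versions, the replicate block and the fit without those 3 libraries called 0, and leaving out 1 library gave 0 to 1. For sg4, 2 were called; the replicate block and the fit without those 3 libraries called 0, limma without a filter called 1, and leaving out 1 library gave 0 to 2. The replicate block gave 2 calls for both guides and gave 1526 called genes in place of 1876. Deviations of same-numbered libraries correlated between -0.141 and 0.0525. No pairing by number was seen in these values, which cannot exclude that same-numbered libraries were prepared together. sg4 against sg2, and the transcript test, gave 0 called members in every setting run. Reversed signs were all in small changes without a call: PLOD2 for both guides with limma (-0.0427, -0.0429 and -0.0427) and, leaving out 1 library, from -0.000295 to 0.028; PLOD2 with sg4 without those 3 libraries (0.048) and from -0.0575 to 0.00144 leaving out 1; P4HA2 with sg4 from -0.0383 to 0.0411; P3H2 with sg4 with limma (-0.057, -0.0575 and -0.057) and from -0.00429 to 0.0516 leaving out 1; and P3H4 with sg4 from -0.0649 to 0.0278. Among all genes called for both guides, 50.2% were lower, against 76.7% of 1384 with limma on log2(TPM + 1), where the median log2 fold change of all genes shifted to -0.06. Without control library 1, 938 genes were called. The causes were not tested, beyond the smaller number of libraries. In the edgeR fit, DESeq2 size factors, no filter on low counts and the length correction changed no member call; in limma on log2(TPM + 1), dropping the filter ended the calls of P4HB and PLOD3 and gave one for P3H1. Every member had at least 596 counts in each library; how far counting error sets the precision was not tested.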
